A study of Mus musculus with 4 samples.

Results

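The genes described are those of the proteasome, the chamber that degrades ubiquitin-tagged proteins, and of its interferon-induced form, in Langerhans cells of C57BL/6 mice, wild-type or deficient in the aryl hydrocarbon receptor AhR through loss of exon 2 of its gene. They were taken by symbol, as every gene whose name in the array's annotation began with Psm, a letter from a to g and a digit. Among the probe sets annotated to a gene alone, the one with the highest mean over the 4 arrays stood for it. This gave 48 of 12393 measured genes. Of these, 15 encode core subunits (Psma and Psmb), 4 are interferon-induced (Psmb8, Psmb9, Psmb10 and Psme1), 20 are regulatory (Psmc and Psmd) and 7 are further activators, an inhibitor and assembly chaperones. The remaining 2, Psmc3ip and Psme3ip1, matched by name only and are not subunits, which leaves 46 genes.

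Langerhans cells are the dendritic cells of the epidermis. They were sorted as living MHC class II-positive cells from ear epidermis after 16 hours in culture, to a purity above 95% per the labels, which say that mice were not treated. The labels describe the culture as one of epidermal sheets in one place and of single cells in another. The 4 arrays were 2 from AhR-deficient and 2 from wild-type mice, called biological replicates in the labels. The sources used here give neither the age of the mice nor the number behind each array, so p-values measure the spread between these arrays.

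The core of the proteasome is a stack of rings, with alpha subunits (Psma) forming the gates and beta subunits (Psmb) holding the catalytic sites. A regulatory particle of ATPases (Psmc) and other subunits (Psmd) binds ubiquitin chains, unfolds the substrate and feeds it into the core. Under interferon, the catalytic subunits Psmb5, Psmb6 and Psmb7 are replaced in new particles by Psmb8, Psmb9 and Psmb10, which shifts cutting towards peptides that suit MHC class I, and the activator PA28, built from Psme1 and Psme2, opens the gate. Dendritic cells are known to carry much of this immunoproteasome.

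The median array signal lay between 5.60 and 5.63 on the log2 scale. Ahr itself read 8.55 and 8.60 in cells lacking AhR against 7.61 and 8.23 in the wild type. No annotation used here places that probe set within exon 2, and its level therefore says nothing about the labels. Ahrr, the AhR repressor gene and a known AhR target, read 5.32 and 5.09 without AhR against 8.26 and 8.38 with it. It was lower in AhR-deficient cells, as the labels imply, with a log2 difference of -3.11 (SE 0.11, limma adjusted p = 0.0403). The Langerhans cell markers Cd207 (11.00 to 12.06) and Epcam (10.71 to 11.38) were bright on all 4 arrays. No marker of other cells passed the test in limma, but summed markers lay apart by genotype for several lists. For each list, signals were summed on the linear scale over its measured markers. The sum was 412 to 853 in AhR-deficient against 356 to 403 in wild-type cells for 9 of 9 keratinocyte markers, 203 to 222 against 258 to 287 for 5 of 6 T cell markers, and 565 to 792 against 281 to 402 for 5 of 5 macrophage and neutrophil markers. It was 16031 to 17364 against 11183 to 13715 for 8 of 8 Langerhans and dendritic cell markers and 142 to 150 against 162 to 178 for 4 of 4 mast cell markers. Each of these lists was mixed. Dsp (1.32), Krt10 (0.67), Krt14 (0.57), Krt5 (0.27) and Sfn (0.18) were higher without overlap. Perp (0.85), Lor (0.81), Krt1 (0.037) and Krt15 (-0.0022) overlapped, with Lor at 8.53 on AhR-deficient replicate 1 and 6.72 on replicate 2. Cd3g (-1.26), Cd2 (-0.70) and Cd3d (-0.56) were lower without overlap, while Cd3e (-0.069) and Thy1 (-0.10) overlapped. C1qb (1.16), C1qa (1.10) and Lyz2 (0.93) were higher without overlap, while S100a8 (-0.096) and S100a9 (-0.089) overlapped. Kit was lower without overlap (-0.64), while Mcpt4 (0.18) and Fcer1a (0.036) were higher without overlap and Cpa3 differed by 0.0019. H2-Aa (1.31), H2-Ab1 (1.24), Cd74 (0.93) and Itgax (0.14) were higher without overlap. Cd86 (0.22), Cd207 (-0.068), Epcam (-0.32) and Ccr7 (-0.063) overlapped. The sums overlapped for melanocyte markers (3 of 5, 176 against 172 to 180) and for stroma (4 of 4, 274 to 294 against 289 to 307). No marker has a value of 0 on this scale, but Krt15 and Sfn among the keratinocyte markers, and S100a8 and S100a9, lay under the 25th percentile of every array. The part of these markers in the results below was not tested, and in sorted bulk cells fewer cells of a type cannot be told apart from less RNA per cell. The 3' to 5' contrast of the Actb control probe sets (log2, a measure of RNA quality) was 2.34 and 2.61 in cells lacking AhR against 3.16 and 2.65 in the wild type, highest in wild-type replicate 1. That of Gapdh was 2.24 and 2.19 against 2.60 and 1.97, which overlapped. It was highest in wild-type replicate 1 and lowest in wild-type replicate 2.

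The comparison of genotypes asks which of these transcripts differ when AhR is missing. Each difference is the mean log2 signal of 2 AhR-deficient arrays less that of 2 wild-type arrays, with limma's moderated SE, and p-values were adjusted by Benjamini-Hochberg over 22626 probe sets. No proteasome gene passed an adjusted p of 0.05: 0 of 46 were called higher or lower in limma, where 0.0323% of all genes and 0.0177% of all probe sets were called. At an unadjusted p under 0.05, 2 of 46 were higher and 0 lower, where 3.5% of all genes were higher and 6.54% differed in either direction. Arrays of the genotypes did not overlap for 4 genes that were higher, against a background of 18.8% of all genes, and for 9 that were lower, against 16.6%. The first is below the background share and the second near it. The median difference was -0.046, beside 0.0065 over all genes.

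**Figure D1:**
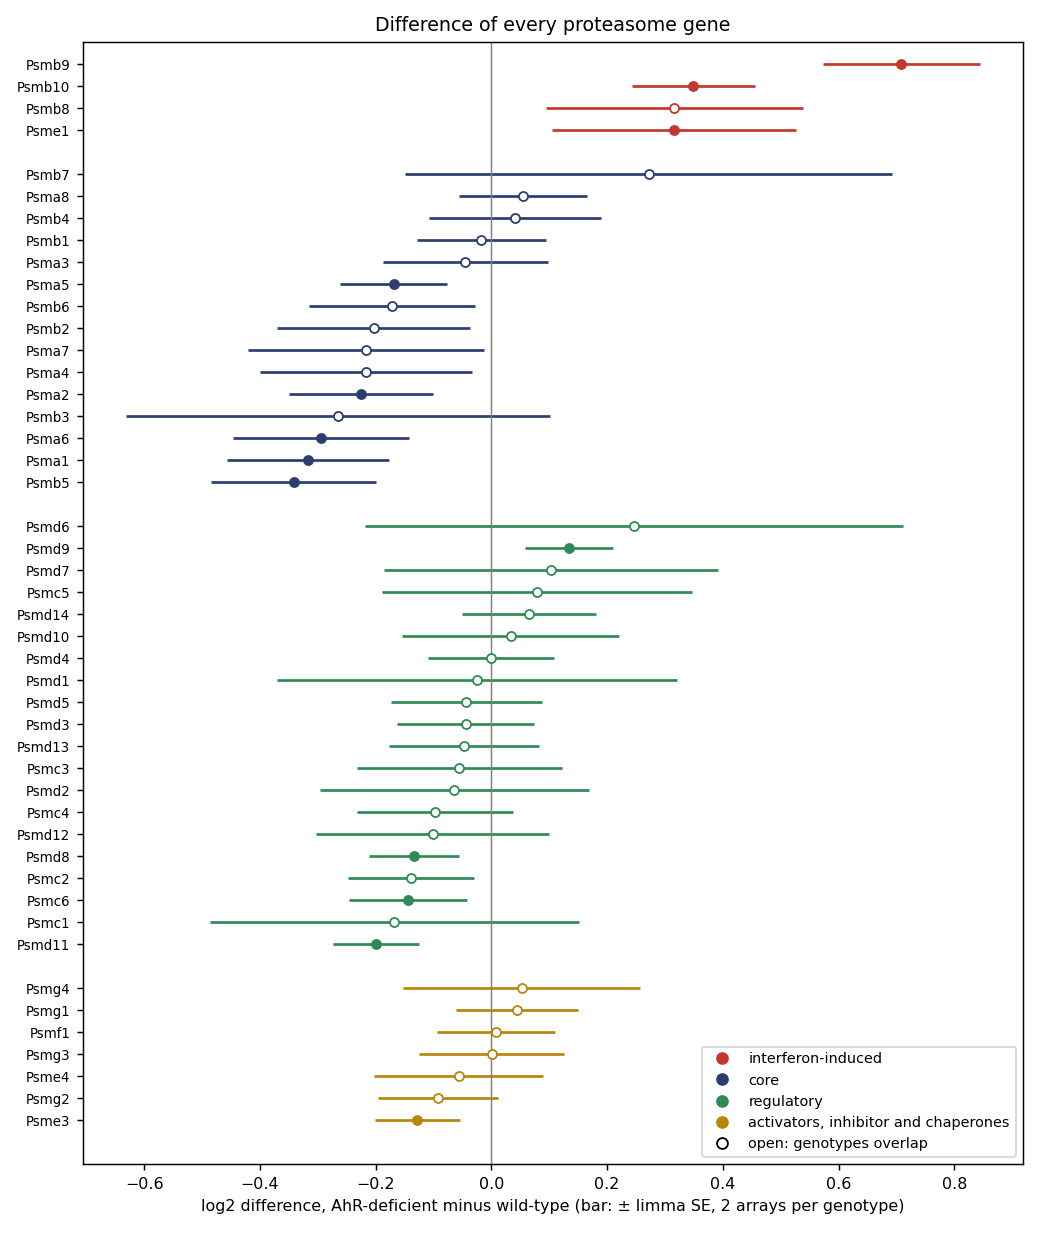
Log2 difference (AhR-deficient minus wild-type) of each of 46 proteasome genes on the horizontal axis, by class, with bars of ± limma's SE (2 arrays per genotype); filled points are genes whose genotypes do not overlap. The 4 interferon-induced genes lie between 0.32 and 0.71, while 12 of 15 core genes lie below 0.

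The interferon-induced subunits all had higher means in AhR-deficient cells, by 0.32 to 0.71, and the genotypes did not overlap for 3 of 4, where 18.8% of all genes were higher without overlap. The median difference was 0.33. None passed the test (limma adjusted p between 0.571 and 0.899). The genes are few, and they were grouped with earlier results of these data known.

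Psmb9, the catalytic subunit that replaces Psmb6, had the greatest difference of the 46 genes. On the log2 scale it read 9.36 and 9.30 in cells lacking AhR against 8.45 and 8.79 in the wild type. Both AhR-deficient arrays were higher than both wild-type arrays, and the distance exceeded the gap between arrays of either genotype. The difference was 0.71 (SE 0.14, unadjusted p = 0.00541, adjusted p = 0.571 in limma), or 1.63-fold. With any 1 array left out it lay between 0.54 and 0.87.

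Psmb10, which replaces Psmb7, read 8.43 and 8.55 in cells lacking AhR against 8.04 and 8.23 in the wild type. Here too the genotypes did not overlap, and the distance was wider than the gap within each. The difference was 0.35 (SE 0.11, limma adjusted p = 0.761), or 1.27-fold.

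Psmb8, which replaces Psmb5, read 11.32 and 11.18 against 10.64 and 11.23. Wild-type replicate 1 alone was low, and wild-type replicate 2 lay between the AhR-deficient arrays. The difference of 0.32 (SE 0.22, limma adjusted p = 0.899) was 0.018 without wild-type replicate 1 and 0.61 when the other wild-type array was left out.

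Psme1, the alpha subunit of the PA28 activator, read 10.48 and 10.49 against 9.88 and 10.46. These did not overlap, but wild-type replicate 2 lay just under the AhR-deficient arrays. The difference of 0.32 (SE 0.21, limma adjusted p = 0.897) was 0.028 without wild-type replicate 1 and 0.60 when the other wild-type array was left out. The probe set of Psme2, the partner of Psme1, is annotated to both Psme2 and Psme2b, so it fell outside the single-gene rule. It read 11.01 and 11.25 against 10.94 and 11.02, which overlapped (difference 0.15, SE 0.11).

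The median of the 4 interferon-induced genes thus rested partly on wild-type replicate 1, the array with the highest Actb 3' to 5' value, whose part in the result was not tested. The median was 0.14 when that array was left out and 0.61 when wild-type replicate 2 was. For Psmb9 and Psmb10 the differences without wild-type replicate 1 were 0.54 and 0.25.

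**Figure D2:**
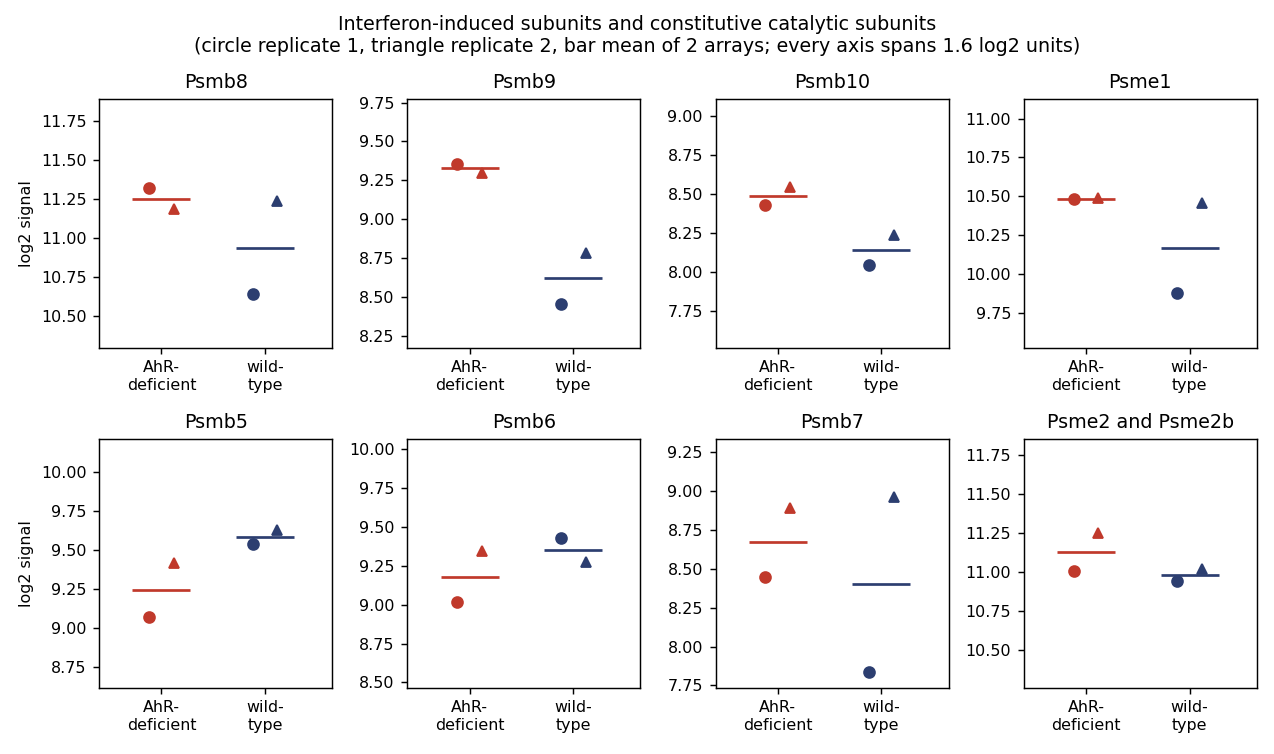
Log2 signal of each array for the interferon-induced subunits Psmb8, Psmb9, Psmb10 and Psme1, for the constitutive catalytic subunits Psmb5, Psmb6 and Psmb7, and for the probe set shared by Psme2 and Psme2b; circles are replicate 1, triangles replicate 2, bars the mean of 2 arrays. Both AhR-deficient arrays lie above both wild-type arrays for Psmb9 and Psmb10, and below them for Psmb5.

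Psmb9 and Psmb8 lie in the class II region of the MHC, interleaved with the peptide transporter genes in the order Psmb9, Tap1, Psmb8, Tap2 by RefSeq. Tap1, which starts next to Psmb9 on the opposite strand, read 8.53 and 7.85 in cells lacking AhR against 7.45 and 7.50 in the wild type. The difference was 0.72 (SE 0.24, limma adjusted p = 0.811), with no overlap but with AhR-deficient replicate 1 well above replicate 2. Tap2 differed by 0.57 (SE 0.36) with overlapping arrays. Further along, H2-Ab1 and H2-Aa, which encode class II chains, differed by 1.24 (SE 0.27) and 1.31 (SE 0.14) without overlap and did not pass either; the sort itself had gated on MHC class II protein. On the other side of Psmb9, H2-DMb2 differed by 0.0017 (SE 0.081) and H2-DMa by 0.26 (SE 0.12), so values across the region were uneven.

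The stretch between the starts of Psmb9 and Tap1 is shown first, because both genes are read away from it and had like differences. It is followed by the sequence before the starts of Psmb8 and Psmb10, the other interferon-induced catalytic genes, and before Psmb5 and Psmb6, 2 of the constitutive genes they replace. Sequences are from RefSeq, build GRCm38.p6. Positions are chr17:34187331-34187555 (plus strand, 225 bases, Tap1 reading rightwards), chr17:34198045-34198194 (plus, 150 bases), chr8:105938393-105938542 (minus, 150 bases), chr14:54617996-54618095 (minus, 100 bases) and chr11:70525257-70525356 (plus, 100 bases). All are written 5′ to 3′ on the named strand, and all but the first end at the base before the start of the gene. Capitals mark, in the first, the core of the AhR response element (GCGTG, or CACGC on the other strand) and the NF-Y box (CCAAT). In Psmb8 they mark the AhR core and the interferon-gamma activated site (TTCNNNGAA), in Psmb10 the AhR core, and in Psmb5 and Psmb6 an antioxidant response element (TGACNNNGC or TGAGNNNGC), the kind of site known to be read by the factors encoded by Nfe2l1 and Nfe2l2.
Psmb9-Tap1: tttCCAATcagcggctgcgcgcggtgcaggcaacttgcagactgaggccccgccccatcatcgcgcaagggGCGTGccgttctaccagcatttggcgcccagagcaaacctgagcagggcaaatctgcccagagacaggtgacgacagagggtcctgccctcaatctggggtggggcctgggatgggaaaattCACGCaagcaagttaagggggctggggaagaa
Psmb8: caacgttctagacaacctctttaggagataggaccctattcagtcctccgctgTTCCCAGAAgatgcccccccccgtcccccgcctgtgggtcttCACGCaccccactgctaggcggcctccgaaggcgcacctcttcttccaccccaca
Psmb10: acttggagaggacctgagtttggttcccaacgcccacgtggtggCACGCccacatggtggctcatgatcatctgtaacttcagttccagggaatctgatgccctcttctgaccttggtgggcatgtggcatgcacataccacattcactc
Psmb5: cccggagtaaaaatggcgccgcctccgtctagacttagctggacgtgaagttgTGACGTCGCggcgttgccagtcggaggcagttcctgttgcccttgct
Psmb6: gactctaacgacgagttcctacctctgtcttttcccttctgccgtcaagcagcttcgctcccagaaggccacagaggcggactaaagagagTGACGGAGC

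Over windows of 250 bases before to 50 after a start, with both strands read, RefSeq promoters were found for 38 of the 46 genes, in 40 windows. The AhR core was matched in 3 of 4 interferon-induced windows, 8 of 12 core windows and 6 of 18 regulatory windows, against 32.4% of all 32851 promoter windows. It was also matched in 4 of 6 windows of the other activators, the inhibitor and the chaperones. Psmb5 was among the core genes with this match, at a place just past the stretch printed above. The antioxidant element was matched in 0 of 4, 8 of 12, 7 of 18 and 2 of 6, against 27.8% of all windows. A match to the interferon-gamma site was found in 1 of the 4 interferon-induced windows (Psmb8, against 8.30% of all) and to the interferon-stimulated response element (GAAA, any 2 bases, GAAA) in 1 of the 4 (Psme1, against 3.44%). The gamma site was also matched in 0 of 12 core, 1 of 18 regulatory and 1 of 6 other windows, and the response element in 1, 2 and 1 of them. The NF-Y box was matched in 1 of 4, 6 of 12, 5 of 18 and 1 of 6, against 37.4%. The antioxidant pattern ends in the letters with which the AhR core begins, so matches to them can share bases. These are counts of letters and not of bound sites.

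In each array, the signal of an interferon-induced catalytic subunit was set against that of the subunit it replaces, and the log2 difference was compared between genotypes. Only its change between genotypes can be read, since signals of different probe sets are not on a common scale. With 2 arrays against 2, an exact permutation test (two-sided) cannot give a p under 0.333.

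Psmb9 minus Psmb6 was 0.34 and -0.04 in cells lacking AhR against -0.98 and -0.49 in the wild type. The genotypes did not overlap, and Psmb9 stood higher relative to Psmb6 in AhR-deficient cells by 0.88. The exact permutation p was 0.333, the smallest possible, and 0.500 adjusted over the 3 pairs. Psmb8 minus Psmb5 was 2.25 and 1.77 against 1.10 and 1.60, also without overlap. This pair differed by 0.66 (exact permutation p = 0.333, adjusted 0.500), by 0.41 without wild-type replicate 1 and by 0.91 when the other wild-type array was left out. Psmb10 minus Psmb7 was -0.02 and -0.35 against 0.21 and -0.73, so both AhR-deficient arrays lay between the wild-type arrays. Its difference of 0.077 (exact permutation p = 1, adjusted 1) was 0.55 without wild-type replicate 1 and -0.39 when the other wild-type array was left out.

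**Figure D3:**
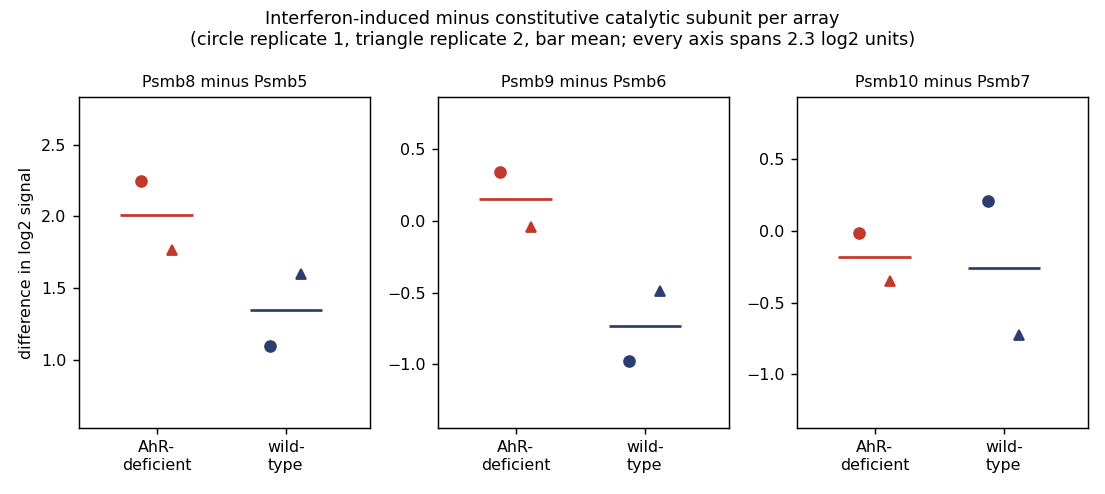
Log2 signal of each interferon-induced catalytic subunit minus that of the constitutive subunit it replaces, per array; circles are replicate 1, triangles replicate 2, bars the mean. For Psmb9 minus Psmb6 and Psmb8 minus Psmb5 the AhR-deficient arrays lie above the wild-type arrays, by 0.88 and 0.66 on average, while the arrays of Psmb10 minus Psmb7 overlap.

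The constitutive core subunits mostly had lower means in AhR-deficient cells, by small amounts. Of 15 core genes, 12 were lower and 3 higher, with a median of -0.20 and a range of -0.34 to 0.27. For 5 of them both AhR-deficient arrays were below both wild-type arrays, and for 0 the reverse, against 16.6% and 18.8% of all genes. None passed (limma adjusted p of 0.857 or more), and 0 reached an unadjusted p under 0.05.

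All 7 alpha ring genes Psma1 to Psma7, which form the outer rings and their gates, had lower means, with a median of -0.22 and a range of -0.32 to -0.045. Psma1 read 9.08 and 9.32 in cells lacking AhR against 9.39 and 9.65 in the wild type, a difference of -0.32 (SE 0.14). The genotypes did not overlap and their distance was wider than the gap within each. Its other probe sets, of low signal (3.18 to 3.75), differed by 0.20 and 0.15, and the mean of all of them by 0.0097. Psma5 (9.55 and 9.62 against 9.68 and 9.83) did not overlap either, at -0.17 (SE 0.093). The other bright probe set of Psma5 differed by -0.088, with overlap.

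Psma6 and Psma2 were without overlap too, but arrays of a genotype lay farther apart than the genotypes did. Psma6 read 9.81 and 9.73 against 10.26 and 9.88, at -0.29 (SE 0.15). Its other probe sets above the 25th percentile differed by -0.13 and -0.10, with overlap. Psma2 read 9.68 and 9.96 against 10.00 and 10.09, at -0.23 (SE 0.12). Psma4 (-0.22), Psma7 (-0.22) and Psma3 (-0.045) had overlapping arrays.

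Psma8, a testis form of an alpha subunit, read 4.21 and 4.44 against 4.24 and 4.30, near the lower end of the signal, and was the only one of the 46 whose mean lay under the 25th percentile of probe sets. It differed by 0.055.

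Among the 7 constitutive beta genes, 5 were lower and 2 higher (median -0.17). Psmb5, which carries the chymotrypsin-like site, read 9.07 and 9.42 in cells lacking AhR against 9.54 and 9.63 in the wild type. The genotypes did not overlap, although the AhR-deficient arrays were 0.35 apart. The difference was -0.34 (SE 0.14, limma adjusted p = 0.857), the most negative of all 46 genes. Leaving out AhR-deficient replicate 1 gave -0.17, and leaving out replicate 2 gave -0.52.

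Psmb6, the caspase-like subunit, read 9.02 and 9.34 against 9.43 and 9.27, which overlapped, and differed by -0.17 (SE 0.14). Psmb7, the trypsin-like subunit, read 8.45 and 8.89 against 7.83 and 8.96. Wild-type replicate 1 was the lowest and wild-type replicate 2 the highest of all arrays, and the difference of 0.27 (SE 0.42) was smaller than their gap of 1.13. It was -0.29 without wild-type replicate 1 and 0.84 when the other wild-type array was left out.

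Of the non-catalytic beta genes, Psmb3 read 9.31 and 9.44 against 10.16 and 9.12, where wild-type replicate 1 stood high, for a difference of -0.27 (SE 0.37). Psmb4 read 9.93 and 10.07 against 9.79 and 10.14, so the AhR-deficient arrays lay between the wild-type arrays, at 0.041. Psmb2 (-0.20) and Psmb1 (-0.018) had overlapping arrays too. The other bright probe set of Psmb3 differed by 0.071 and that of Psmb4 by -0.24, each with a sign opposite to the chosen one. Of the 17 genes with several probe sets above the 25th percentile, 7 had the same sign in all of them, among them Psma5, Psma6 and Psma7.

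The genes of the regulatory particle had small differences of both signs. Of 20 genes, 6 had higher and 14 lower means, with a median of -0.046 and a range of -0.20 to 0.25. For 3 of them the AhR-deficient arrays were below both wild-type arrays, and for 1 above. Of all genes, 16.6% were lower and 18.8% higher in this way, so neither count stands above the background. None passed (limma adjusted p of 0.834 or more).

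The lid, which removes ubiquitin chains, held the gene with the smallest unadjusted p of the class. Psmd11, a scaffold subunit of the lid, read 10.36 and 10.34 in cells lacking AhR against 10.57 and 10.52 in the wild type. The arrays of each genotype were close and the genotypes did not overlap, with a difference of -0.20 (SE 0.075, limma adjusted p = 0.834). Its chosen probe set ends in _s_at, a mark for probes shared between transcripts. The other 5 probe sets of Psmd11 ranged from -0.33 to 0.10. Psmd8 read 8.26 and 8.31 against 8.39 and 8.45, with no overlap and a difference of -0.13 (SE 0.077). Psmd14, the deubiquitinase of the lid, read 9.83 and 9.84 against 9.64 and 9.90, which overlapped, at 0.065 (SE 0.12).

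Psmd6, another lid subunit, read 8.95 and 9.12 against 8.12 and 9.45. Its wild-type gap of 1.33 was the widest of the 46 genes, and the difference of 0.25 (SE 0.46) was -0.42 without wild-type replicate 1 and 0.91 when the other wild-type array was left out. Its other probe set, at 8.81 and 8.79 against 8.87 and 8.91, showed no such gap and differed by -0.092 (SE 0.075). Psmd12 (-0.10), Psmd3 (-0.045), Psmd13 (-0.047) overlapped. Psmd7 read 5.31 and 5.20 against 4.75 and 5.56, again with the AhR-deficient between the wild-type arrays, at 0.10 (SE 0.29).

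Of the 6 ATPases that drive substrates into the core, 5 were lower and 1 higher. Psmc6 read 8.997 and 9.010 against 9.04 and 9.25, without overlap, at -0.14 (SE 0.10). Its other bright probe set differed by 0.094, the opposite sign, with overlap. Psmc2 read 10.51 and 10.31 against 10.49 and 10.61, which overlapped, at -0.14 (SE 0.11). Psmc1 (-0.17, SE 0.32), Psmc4 (-0.098), Psmc3 (-0.056) and Psmc5 (0.079) overlapped as well.

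In the base, the scaffold subunits Psmd2 and Psmd1 differed by -0.064 (SE 0.23) and -0.025 (SE 0.35), and the ubiquitin receptor Psmd4 by -0.00074 (SE 0.11). The other probe sets of Psmd4 differed by 0.17, without overlap, and by 0.10, with overlap. Of the 3 genes for chaperones that help assemble the base, Psmd9 read 6.54 and 6.48 against 6.39 and 6.36. By chosen probe sets it was the only regulatory gene higher without overlap, at 0.13 (SE 0.077), and its other probe set differed by -0.038. Psmd10 differed by 0.033 and Psmd5 by -0.043, both with overlap.

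The remaining activators, the inhibitor and the core chaperones lay close to 0, with a median of 0.00037 over 7 genes and a range of -0.13 to 0.052. Psme3, the nuclear PA28 gamma activator, which is not classed with the interferon-induced ones, read 6.37 and 6.37 in cells lacking AhR against 6.50 and 6.50 in the wild type. The arrays of each genotype nearly coincided, and the genotypes did not overlap, at -0.13 (SE 0.073, limma adjusted p = 0.879). The other genes of this group overlapped. The activator Psme4 read 8.65 and 8.28 against 8.54 and 8.51, at -0.057, and the inhibitor Psmf1 read 7.28 and 7.22 against 7.34 and 7.14, at 0.0076. The chaperones Psmg1 and Psmg2 pair to start the alpha ring. Psmg1 read 6.32 and 6.30 against 6.15 and 6.38, at 0.044, and Psmg2 read 5.60 and 5.46 against 5.54 and 5.70, at -0.092. Their partners in ring assembly, Psmg3 and Psmg4, also form a pair. Psmg3 read 6.58 and 6.55 against 6.71 and 6.42, at 0.00037, and Psmg4 read 6.29 and 6.56 against 6.62 and 6.13, at 0.052. For Psmf1, Psmg1, Psmg3 and Psmg4 both AhR-deficient arrays lay between the wild-type arrays. Psmc3ip and Psme3ip1, matched by name only, differed by 0.039 and -0.16.

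Arrays of the same genotype often lay farther apart than the genotypes did. The difference between genotypes exceeded the gap within both of them for 8 of 46 genes, or 17.4%, beside 23.4% of all genes. The median size of the gap between wild-type arrays was 0.27 over the 46 genes and 0.12 over all genes, while between AhR-deficient arrays it was 0.14 and 0.12. Wild-type replicate 2 was higher than replicate 1 for 34 of 46 proteasome genes, or 73.9%, beside 47.7% of all genes. By class this held for 4 of 4 interferon-induced, 11 of 15 core and 16 of 20 regulatory genes.

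Between the AhR-deficient arrays the classes went opposite ways. Replicate 2 was higher than replicate 1 for 12 of 15 core genes and for 6 of 20 regulatory genes. All 7 constitutive beta genes were higher in replicate 2, by a median of 0.24. All 3 other base subunits and 5 of 6 ATPases were higher in replicate 1, with the widest gaps at Psmd2 (9.15 against 8.57), Psmd1 (9.01 against 8.54) and Psmc1 (8.34 against 7.93). For the regulatory genes, the median difference between genotypes was 0.062 when AhR-deficient replicate 2 was left out and 0.12 when wild-type replicate 2 was. It was -0.13 and -0.19 when the first replicate of either genotype was left out instead.

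**Figure D4:**
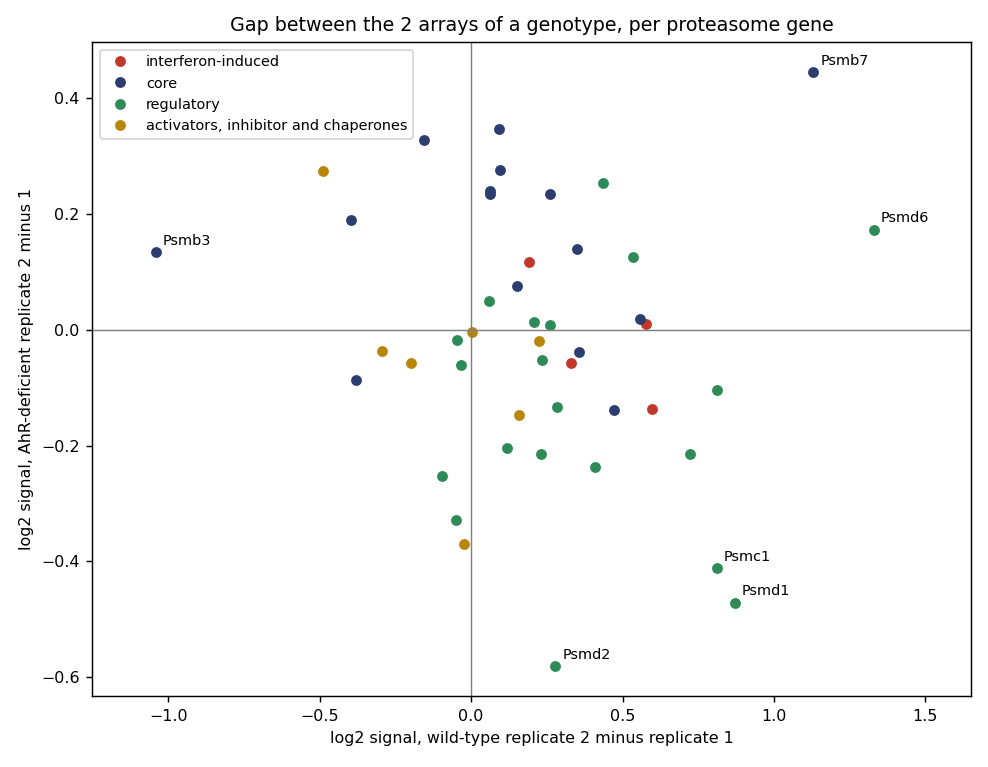
For each of 46 proteasome genes, the log2 signal of replicate 2 minus replicate 1 in wild-type cells (horizontal) and in AhR-deficient cells (vertical), coloured by class. Most genes (34 of 46) lie to the right of 0, with Psmd6 at 1.33, and the regulatory genes Psmd1, Psmd2 and Psmc1 lie lowest on the vertical axis.

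Genes around the proteasome were read from 5 lists, and none of their members passed in limma. Among 9 measured partners and assembly factors, 3 were lower and 0 higher without overlap, where 16.6% of all genes were lower and 18.8% higher in this way. Their median was -0.12. Pomp, the chaperone that matures the core and is needed to build immunoproteasomes, read 9.62 and 9.71 in cells lacking AhR against 10.26 and 10.00 in the wild type. Both AhR-deficient arrays were lower, by 0.46 on average (SE 0.12, limma adjusted p = 0.706). Pomp and Psmb9 had differences of opposite sign. Txnl1, a thioredoxin-like protein bound to the regulatory particle, read 9.54 and 9.56 against 9.90 and 9.76, at -0.28 (SE 0.089). Ublcp1 was lower without overlap too (-0.24). The deubiquitinase genes Usp14 (-0.12) and Uchl5 (-0.12) overlapped, and so did Ube3c, whose mean was higher (0.14).

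Of 9 measured genes for ubiquitin handling and shuttling, 2 were lower without overlap (background 16.6%) and 0 higher (18.8%), with a median of -0.10. The lower count is near the background. The 2 genes, Ubqln2 and Ubqln4, encode ubiquilins, which carry tagged proteins to the proteasome. Ubqln2 read 8.62 and 8.62 against 8.82 and 8.99, at -0.29 (SE 0.093, limma adjusted p = 0.795), and Ubqln4 differed by -0.15 (SE 0.089). Vcp, the segregase that extracts tagged proteins, differed by -0.25 (SE 0.34) and overlapped. Ufd1 (-0.23, SE 0.18) overlapped as well, as did Faf1, whose mean was higher (0.28, SE 0.23).

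Downstream of the proteasome, 15 genes for peptide trimming and class I loading had a median of 0.44, with 5 higher without overlap (background 18.8%) and 1 lower (16.6%). B2m, the light chain of class I, read 12.39 and 12.30 against 11.66 and 11.70. The arrays of each genotype were close, and the difference was 0.67 (SE 0.081, limma adjusted p = 0.374). Tpp2, a peptidase that trims proteasome products, read 7.50 and 7.42 against 7.20 and 7.26, at 0.24 (SE 0.080). The other peptidase genes of the list overlapped and went both ways. Nrd1 (0.54), Erap1 (0.42) and Blmh (0.14) had higher means, and Npepps (-0.22), Lap3 (-0.054) and Thop1 (-0.025) lower ones. Canx, a chaperone of class I chains, differed by 0.53 (SE 0.19) and Tapbp, the loading protein tapasin, by 0.47 (SE 0.19), both without overlap. Tapbpl was lower without overlap, at -0.089 (SE 0.075).

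Among 10 measured transcription factors known to act on proteasome genes, 2 were higher and 2 lower without overlap, with a median of 0.15. Both counts are near the shares of all genes, 18.8% and 16.6%. Nfe2l2, which encodes Nrf2, an activator of antioxidant response elements, read 6.34 and 6.30 in cells lacking AhR against 7.15 and 7.55 in the wild type. The difference of -1.03 (SE 0.16, limma adjusted p = 0.489) was wider than any of the proteasome genes, and it did not pass. Nfe2l1, whose product Nrf1 restores proteasome genes when the proteasome is inhibited, differed by 0.12 (SE 0.18) and overlapped. Irf8 read 8.91 and 8.52 against 9.15 and 9.29, at -0.51 (SE 0.16), and Irf1, an interferon-induced activator of Psmb9, differed by 0.15 (SE 0.17) with overlap. Nfya (0.26, SE 0.11) and Stat2 (0.26, SE 0.11) were the genes higher without overlap.

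Of 7 interferon receptor chains and kinases, 3 were higher without overlap (background 18.8%) and 0 lower (16.6%), with a median of 0.16. Jak2 read 11.30 and 10.87 against 10.82 and 10.68, at 0.34 (SE 0.17, limma adjusted p = 0.870), and Ifngr1 and Ifnar2 differed by 0.13 and 0.16.

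**Figure D5:**
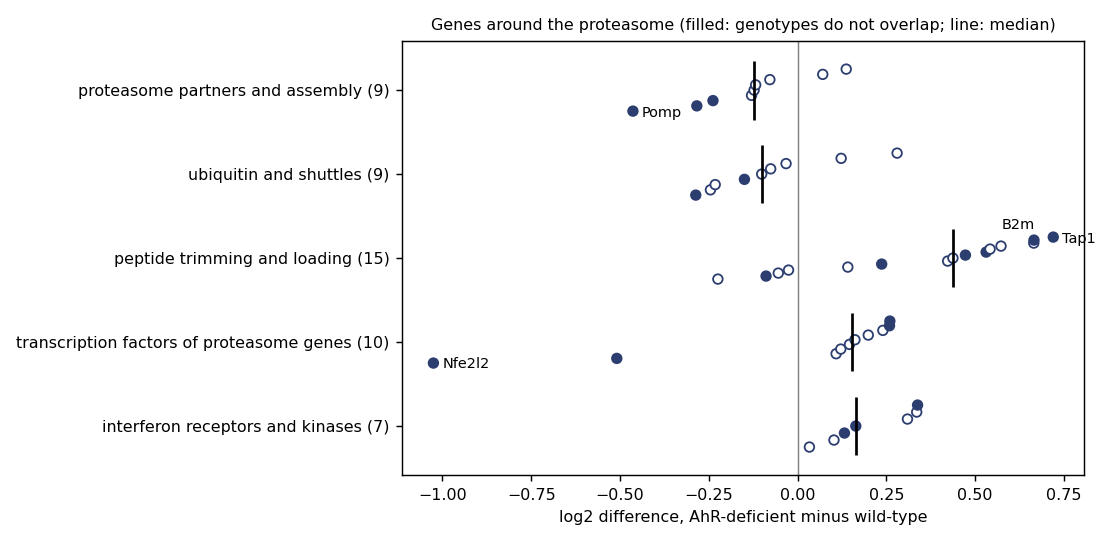
Log2 difference (AhR-deficient minus wild-type) of each measured gene in 5 lists around the proteasome; filled points are genes whose genotypes do not overlap, black lines are list medians, and the number of measured genes follows each name. The median is 0.44 for peptide trimming and loading and -0.12 for partners and assembly, with Nfe2l2 farthest to the left at -1.03.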

How the data were processed

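Expression was measured on Affymetrix MOE430A arrays in 4 samples, 2 per genotype. The deposited values are log2 expression per probe set, made with RMA in affy per the submitters' processing notes; RMA corrects background, normalises by quantiles and sums up probes. No version of either is given in the sources used here. Of 22690 probe sets, 64 controls were left out and 22626 tested. The platform annotation gave 1 symbol to 20380, several to 691 and none to 1555. All 48 member symbols were in the RefSeq table of GRCm38.p6; the array annotation names no build.

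The main test was limma 3.58.1 under R 4.3.3 (lmFit, eBayes, two-sided, no block; residual degrees of freedom 2, prior 2.27), with Benjamini-Hochberg adjustment over all tested probe sets. The number of arrays limits the precision (median SE 0.10). The steps were tested on simulated data. For limma the planted differences were larger than that of any proteasome gene, so detection of smaller ones was not tested.

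Members, 5 gene lists around the proteasome, 7 marker lists and motifs were chosen with earlier results of these data known. By the rule for named genes, all interferon-induced members, their constitutive counterparts and, per other class, up to 4 members with the smallest p in each direction are given by array; other members may be named with their difference. From each list up to 4 genes with the smallest p were named. Vcp, Usp14, Uchl5, Tapbp, Nfe2l1, Irf1 and Tapbpl were added after their values were seen. So were the peptidase genes other than Tpp2, and arrays for Psma5, Psmb3, Psmd1, Psmd2 and Psmc1. Alternatives were a replicate block, each array left out, trend and robust variance models, array weights, a filter on dim probe sets, 2 scalings, an offset of 16 and 2 other choices of probe set.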

Additional observations from a re-analysis of the deposited data

How the results depend on the processing

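No proteasome gene was called under any of the 14 alternatives or the 1 added after seeing the data, among those with a value. With probe sets ending in _s_at, _x_at or _a_at left out 38 of 46 had one (Psmb5 and Psmb8 had none), and with dim ones left out 45. The 4 probe sets called over the whole table became 8 with a trend, 2 with those endings left out, and 0 with 16 added on the linear scale, with the replicate block, with the crossed pairing and with each array left out. The labels do not say that equal numbers mark a shared origin, and the deviations of same-numbered arrays correlated at -0.31 over probe sets; the crossed pairing (AhR-deficient 1 with wild-type 2) also gave 0.

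The number of interferon-induced genes higher without overlap went from 3 to 2 with array medians subtracted and with quantile normalisation. The number of core genes lower without overlap went from 5 to 3 with all probe sets averaged and to 2 with those endings left out, where the regulatory number went from 3 to 1. Quantile normalisation gave 6 core and 4 regulatory genes lower without overlap. Signs turned with averaging for Psma1 (0.0097), Psmb4 (-0.10) and Psmd4 (0.090), and with those endings left out for Psma5 (0.046), Psmb3 (0.071) and Psme4 (0.045). Differences near 0 also turned: Psmg3 with the offset (-0.00060), median subtraction (-0.011) and quantile normalisation (-0.017), Psmf1 with median subtraction (-0.0041) and quantile normalisation (-0.026), and Psmb4 with quantile normalisation (-0.0069).

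With 1 array left out, the core number ranged from 6 to 10 and the regulatory one from 3 to 16, where a lone array overlaps less easily. The interferon-induced median ranged from 0.14 to 0.61 and Psmb10 minus Psmb7 from -0.39 to 0.55. The sign turned for the genes that follow. Core genes were Psma3 (-0.22 to 0.13), Psma4 (-0.45 to 0.019), Psma7 (-0.49 to 0.061), Psma8 (-0.063 to 0.17), Psmb1 (-0.14 to 0.10), Psmb3 (-0.79 to 0.25), Psmb4 (-0.14 to 0.22) and Psmb7 (-0.29 to 0.84). Regulatory genes were Psmc1 (-0.57 to 0.24), Psmc3 (-0.26 to 0.15), Psmc4 (-0.26 to 0.067), Psmc5 (-0.28 to 0.44), Psmd1 (-0.46 to 0.41), Psmd2 (-0.36 to 0.23), Psmd3 (-0.17 to 0.082), Psmd4 (-0.12 to 0.12), Psmd5 (-0.16 to 0.072), Psmd6 (-0.42 to 0.91), Psmd7 (-0.30 to 0.51), Psmd10 (-0.19 to 0.25), Psmd12 (-0.37 to 0.17), Psmd13 (-0.19 to 0.094) and Psmd14 (-0.066 to 0.20). Others were Psme4 (-0.24 to 0.13), Psmf1 (-0.092 to 0.11), Psmg1 (-0.068 to 0.16), Psmg3 (-0.15 to 0.15) and Psmg4 (-0.19 to 0.30). All genes of the 46 not listed here kept their sign in all 4, among them Psmb8, Psmb9, Psmb10, Psme1, Psmb5, Psma1 and Psmd11.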
